A study of Mus musculus with 6 samples.

Results

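The 10 genes described here encode stress kinases and nutrient regulators that control how much protein a cell makes. Eif2ak1, Eif2ak3 and Eif2ak4 are kinases of the translation initiation factor eIF2. Sesn1, Sesn3, Rragd, Flcn, Ddit4 and Deptor act on mTORC1, the growth kinase complex of the lysosome, and Eif4ebp1 is one of its substrates. The genes were taken by their gene name, and all 10 were found among the 20788 genes listed in at least 1 library and among the 14336 that were tested. The RNA came from B16, a mouse melanoma line of C57BL/6 origin, in the form of subclones with high tyrosinase activity (Tyr-H) or low tyrosinase activity (Tyr-L), with 3 libraries of each. Both were grown in low-glucose DMEM with serum, and the labels name no treatment of either. The subclones were sorted by tyrosinase activity and by their use of tyrosine for melanin. Separate cultures or clones behind the 3 libraries of a group are not stated in the labels, so each p-value measures the spread between these libraries only, which may be technical.

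Phosphorylation of eIF2 slows the start of translation on most mRNAs and favours a few, among them the mRNA of the transcription factor Atf4. Its kinases each answer to a different stress, such as haem shortage, unfolded protein in the endoplasmic reticulum or uncharged tRNA. mTORC1 is switched on at the lysosome by Rag GTPases when amino acids are plentiful and by the GTPase Rheb when growth signals are present. Sestrins, Ddit4 and Deptor restrain it, and active mTORC1 phosphorylates the proteins that otherwise hold the cap-binding factor eIF4E. Much of this control is exerted on proteins, whereas the values here are mRNA levels.

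The libraries had about 18600000 to 21100000 fragments each, as estimated from the smallest steps in the values. Fragments per gene were estimated from these depths and the longest annotated transcript, so a shorter transcript would give fewer. Over the 10 genes they ran from about 224 (Sesn1) to 5294 (Eif4ebp1). Levels are FPKM, fragment counts scaled to transcript length and to library depth, so that genes can be compared per length. All 7 melanocyte markers averaged 1 FPKM or more in each group, and Tyr itself ranged from 9.52 to 10.7 FPKM over the Tyr-L and from 19.7 to 23.8 over the Tyr-H libraries. The other 6 (Tyrp1, Dct, Pmel, Mlana, Mitf and Sox10) were lower in every Tyr-H library than in any Tyr-L library, and the 7 summed to between 7340 and 7660 FPKM in Tyr-L against 5440 to 5960 in Tyr-H. What part this had in the results below was not tested. The leukocyte markers summed to between 0.189 and 0.445 FPKM, with Ptprc, Cd3e, Itgam and Adgre1 at 0, and endothelial, fibroblast and epithelial markers summed to at most 1 FPKM. Libraries of 1 group differed by a median of 0.0953 to 0.114 (absolute log2) over genes, against 0.315 to 0.371 between groups. Over all tested genes the median log2 fold change (Tyr-H over Tyr-L) was -0.15 as deposited, and it was -0.01 after median ratio scaling or quantile normalization, so changes below 0.6 on the log2 scale are also given relative to the median gene.

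Of the 10 genes, Eif4ebp1 and Ddit4 were called higher in Tyr-H and Deptor was called lower, where a call needed an adjusted p up to 0.05 together with a log2 fold change of 1 or more in either direction. Over all tested genes 2.96% were called higher and 5.78% lower. That excess of lower calls depended on the scaling, with 425 genes higher and 829 lower as deposited, 544 and 580 after median ratio scaling, and 611 and 494 after quantile normalization. With the adjusted p alone, 3 of the 10 genes were higher and 7 lower, beside 17.9% and 39.9% of all tested genes, although Eif2ak1, among the 7, turned its sign under 2 other scalings. The 3 Tyr-H libraries did not overlap the 3 Tyr-L libraries for any of the 10 genes, and this held for 64.0% of all tested genes, so that the lack of overlap is common in this comparison. The median log2 fold change of the 10 genes was -0.31, and it was -0.16 after median ratio scaling and -0.18 after quantile normalization. For each gene the exact two-sided permutation test of 3 libraries against 3 gave p = 0.1, the smallest it allows, and the adjusted p-values below come from limma.

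**Figure D1:**
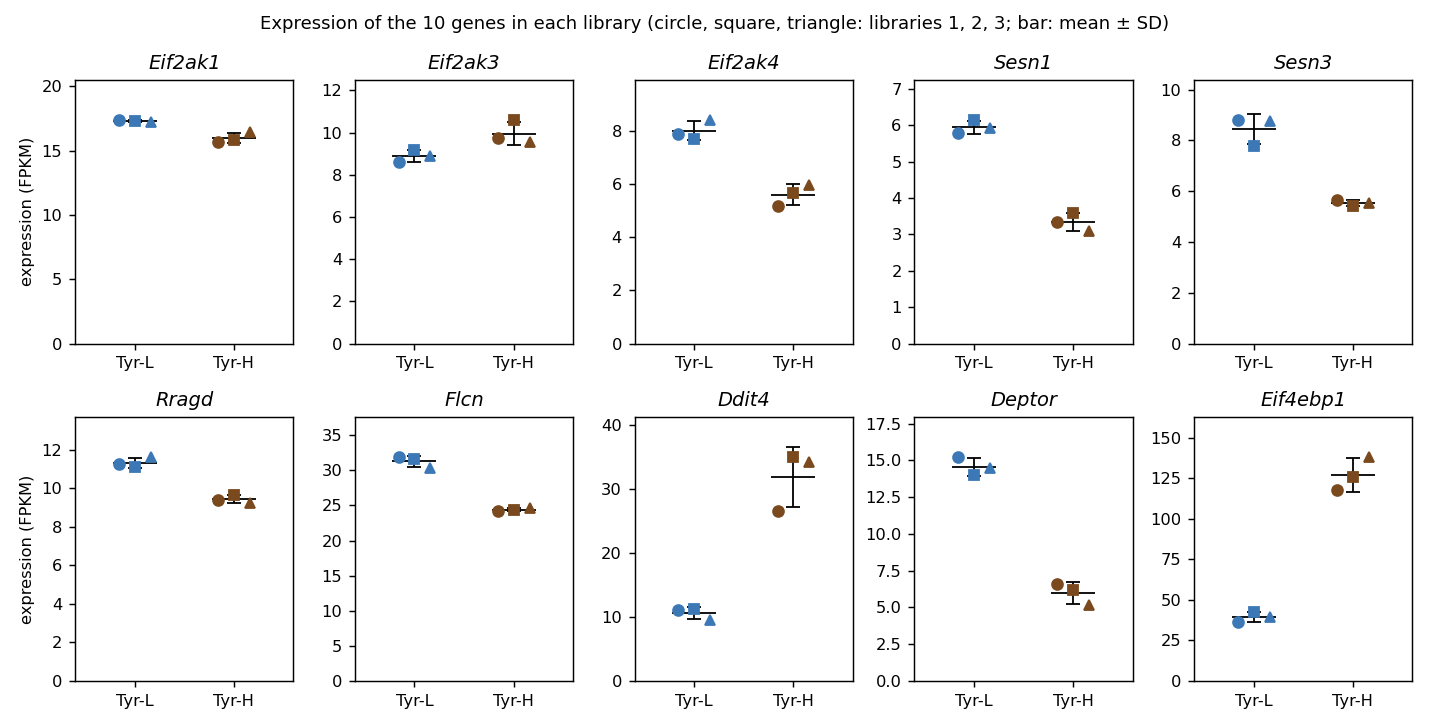
FPKM of each of the 10 genes in the 3 Tyr-L and the 3 Tyr-H libraries, with a circle, square and triangle for libraries 1, 2 and 3 and bars for the mean and SD. The groups are apart in every panel, widely for Eif4ebp1 (means 39.5 and 127.1 FPKM) and Ddit4 (10.6 and 31.9 FPKM) and little for Eif2ak1 (17.3 and 15.99 FPKM).

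The promoters of Ddit4, which rose, and of Sesn1 and Flcn, which fell and hold the only motif matches found, are shown first. RefSeq (GRCm38.p6) gave 10 windows for 8 of the 10 genes, each from 250 bases before to 50 bases after a start site. Eif4ebp1 and Deptor had no entry. Capitals mark the start base and, where present, a motif match, and each sequence reads 5′ to 3′ on the strand of the gene.
Ddit4, chr10:59951721-59952020, minus strand: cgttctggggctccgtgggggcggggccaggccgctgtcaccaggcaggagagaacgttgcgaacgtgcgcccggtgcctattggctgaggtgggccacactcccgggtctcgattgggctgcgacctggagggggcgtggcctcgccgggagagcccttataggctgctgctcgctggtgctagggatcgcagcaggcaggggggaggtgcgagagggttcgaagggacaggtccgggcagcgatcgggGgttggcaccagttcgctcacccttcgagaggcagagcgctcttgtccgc
Sesn1, chr10:41810324-41810623, plus strand: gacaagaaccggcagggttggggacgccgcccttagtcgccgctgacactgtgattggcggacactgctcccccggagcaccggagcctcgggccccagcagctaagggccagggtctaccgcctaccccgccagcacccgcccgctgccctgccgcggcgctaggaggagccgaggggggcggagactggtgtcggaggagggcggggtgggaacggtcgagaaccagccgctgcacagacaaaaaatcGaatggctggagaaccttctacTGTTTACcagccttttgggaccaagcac
Flcn, chr11:59809990-59810289, minus strand: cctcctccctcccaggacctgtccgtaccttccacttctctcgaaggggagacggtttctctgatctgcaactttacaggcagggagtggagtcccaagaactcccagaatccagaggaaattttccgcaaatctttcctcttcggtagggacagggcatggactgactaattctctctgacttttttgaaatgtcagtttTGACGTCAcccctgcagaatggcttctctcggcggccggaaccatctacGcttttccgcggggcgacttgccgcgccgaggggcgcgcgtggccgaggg
Both strands were searched for 5 motifs. The ATF4 core TGATGNAA was in 0 of the 10 windows and in 3.97% of all 32851 promoter windows. The E box CACGTG, read by MiT/TFE and MYC factors, was in 0 of 10 and in 7.15% of all, and its longer form TCACGTGA, which contains it, was in 0 of 10 and in 0.974% of all. The cAMP response element TGACGTCA was in the Flcn window alone, before the start base, and in 1.79% of all windows. The FOXO site GTAAACA was in the Sesn1 window printed above, on the opposite strand and after the start base, and in 3.65% of all windows. These are matches of letters in a short window and not measured binding.

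Among the 3 eIF2 kinases, only Eif2ak4 kept an adjusted p under 0.05 in all 16 alternatives that refit or rescale the data. Eif2ak4 (GCN2), the kinase that senses uncharged tRNA, spans chr2:118388618-118475234 on the plus strand. Its level was 7.90, 7.72 and 8.42 FPKM for Tyr-L replicates 1, 2 and 3, and 5.19, 5.68 and 5.96 FPKM for the Tyr-H replicates. All Tyr-H libraries lay below all Tyr-L libraries. The mean fell from 8.02 (SD 0.363) to 5.61 (SD 0.390), a log2 fold change of -0.51 (SE 0.07, adjusted p = 0.000312). That is -0.35 relative to the median gene.

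Eif2ak3 (PERK), the kinase of the endoplasmic reticulum, lies at chr6:70844515-70905245 on the plus strand. Its Tyr-L libraries had 8.60, 9.16 and 8.87 FPKM and its Tyr-H libraries 9.73, 10.6 and 9.54 FPKM. The groups came close, with the highest Tyr-L library at 9.16 and the lowest Tyr-H library at 9.54. The log2 fold change was 0.16 (SE 0.06, adjusted p = 0.0458), or 0.32 relative to the median gene, and it was 0.32 after median ratio scaling or quantile normalization and 0.07 after rescaling to a common total, where the adjusted p was 0.43. Gm43292, at no more than 0.0659 FPKM, shares 485 of the 6026 exon bases of Eif2ak3 on the opposite strand. Leaving out any library but Tyr-H replicate 3 put the adjusted p over 0.05, at up to 0.15.

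Eif2ak1 (HRI), the haem-regulated kinase, lies at chr5:143817788-143904251 on the plus strand, and its deposited locus runs on to 143909847 and also holds Aimp2 and Ankrd61. It had the highest level of the eIF2 kinases, at 17.4, 17.3 and 17.2 FPKM in the Tyr-L libraries against 15.7, 15.8 and 16.4 in the Tyr-H libraries. The means were 17.3 (SD 0.0895) and 15.99 (SD 0.380), a log2 fold change of -0.11 (SE 0.04, adjusted p = 0.0459) that was 0.04 relative to the median gene. The sign turned to 0.04 after median ratio scaling and 0.02 after quantile normalization, with adjusted p-values of 0.462 and 0.755. Without any single library other than Tyr-H replicate 3 the adjusted p was over 0.05, at up to 0.116. Aimp2, a protein-coding gene with means of 31.3 (Tyr-L) and 34.6 FPKM (Tyr-H), shares 487 of the 5670 exon bases of Eif2ak1 on the opposite strand, and reads there could have been counted for either.

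The remaining kinase, Eif2ak2 (PKR), answers to double-stranded RNA and was read as the paralog for comparison. Its mean went from 9.15 FPKM in Tyr-L to 7.41 in Tyr-H, a log2 fold change of -0.30 (adjusted p = 0.0123) that was -0.15 relative to the median gene, and it overlaps Gm26637. The 4 kinases together summed to 43.3 FPKM (SD 0.971) in Tyr-L and 39.0 FPKM (SD 1.43) in Tyr-H, a log2 ratio of -0.15 that equals the shift of the median gene. Within that sum the share of Eif2ak3 went from 20.5% to 25.6% and that of Eif2ak4 from 18.5% to 14.4%, with no overlap between groups. The share of Eif2ak1 was 39.9% and 41.1%, and its groups overlapped. The ratio of Eif2ak3 to Eif2ak2 was 0.975 in Tyr-L and 1.349 in Tyr-H, while that of Eif2ak4 to Eif2ak2 was 0.878 and 0.759. In all, 7 such ratios of paralogs were tested, with the 3 against 3 exact permutation test, and those without overlap had p = 0.1 (0.14 after adjustment over the 7).

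Sestrins bind the GATOR2 complex and hold mTORC1 back when amino acids are short, and Sesn1 and Sesn2 also bind leucine. Sesn1 spans chr10:41809935-41908424 on the plus strand, and of its 2 windows the printed one holds the FOXO match. Its libraries had 5.78, 6.14 and 5.91 FPKM in Tyr-L against 3.34, 3.58 and 3.10 FPKM in Tyr-H. Sesn1 had the lowest level of the 10 genes in both groups, and its groups were far apart. Its log2 fold change was -0.81 (SE 0.08, adjusted p = 3.33e-05). That is under the fold threshold, and it lay between -0.92 and -0.64 over the 16 alternatives.

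Sesn3 (chr9:14275067-14333101, plus strand) went the same way. Tyr-L replicates had 8.80, 7.77 and 8.76 FPKM, and Tyr-H replicates had 5.65, 5.41 and 5.52 FPKM. Replicate 2 was the lowest Tyr-L library and still lay above all Tyr-H libraries. The log2 fold change was -0.60 (SE 0.07, adjusted p = 8.27e-05).

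Sesn2, the paralog that was not among the 10, moved in the opposite direction, from 9.46 FPKM (SD 1.34) to 21.9 FPKM (SD 2.47), a log2 fold change of 1.203 (adjusted p = 1.65e-05). It overlaps Gm12981. The ratio of Sesn3 to Sesn2 therefore went from 0.909 (SD 0.179) to 0.256 (SD 0.0362), a log2 difference of -1.82, and the groups did not overlap. The ratio of Sesn1 to Sesn3 was 0.708 in Tyr-L and 0.605 in Tyr-H, and its groups overlapped (exact permutation p = 0.2). All 3 sestrins summed to 23.9 FPKM (SD 0.971) in Tyr-L and 30.7 FPKM (SD 2.37) in Tyr-H. Sesn2 made up 39.6% of the sum in Tyr-L and 71.0% in Tyr-H, Sesn1 24.9% and 10.9%, and Sesn3 35.5% and 18.1%.

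**Figure D2:**
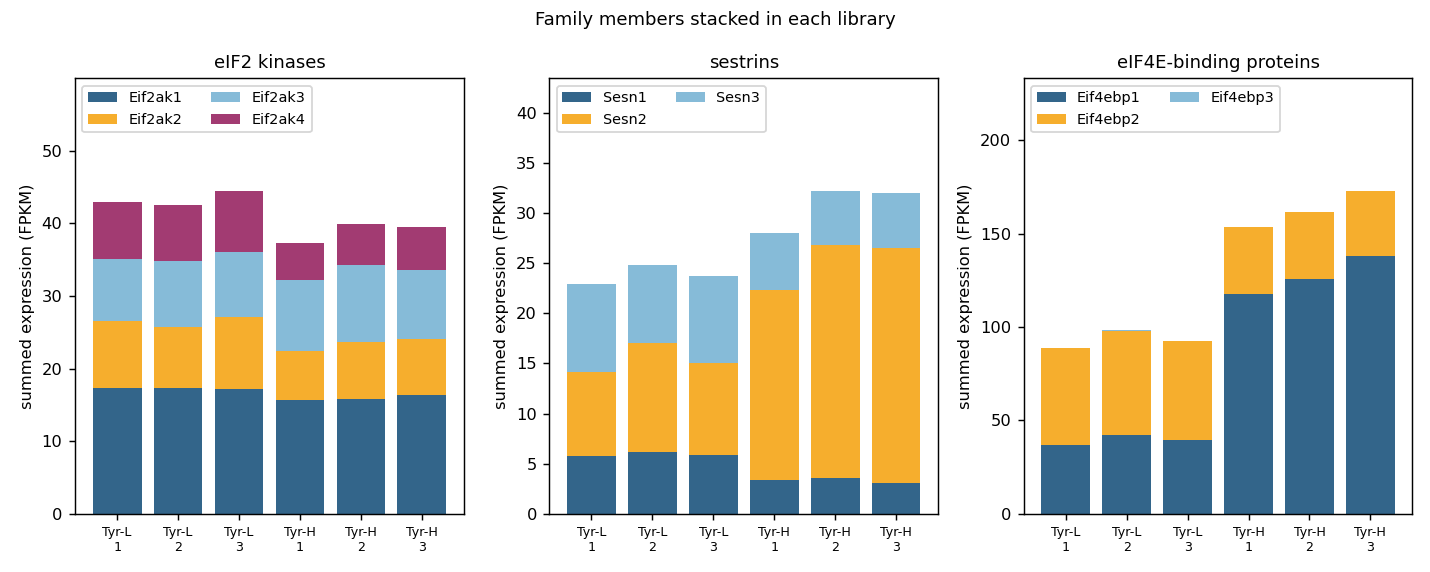
Summed FPKM of the eIF2 kinases, the sestrins and the eIF4E-binding proteins, 1 bar per library with the paralogs stacked in it. Sesn2 went from a mean of 39.6% to 71.0% of the sestrins and Eif4ebp1 from 42.3% to 78.04% of the binding proteins, while the largest shift among the eIF2 kinases was that of Eif2ak3 (20.5% to 25.6%).

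Rragd encodes a Rag GTPase that pairs with RagA or RagB to bring mTORC1 to the lysosome, and it lies at chr4:32983037-33022180 on the plus strand. Tyr-L libraries had 11.2, 11.1 and 11.6 FPKM, whereas 9.41, 9.64 and 9.24 FPKM were found in Tyr-H. The groups did not overlap, and libraries within a group were close. The log2 fold change was -0.26 (SE 0.05, adjusted p = 0.00189), or -0.11 relative to the median gene, and the adjusted p was 0.0992 after median ratio scaling and 0.117 after quantile normalization. Its paralog Rragc had a much higher level, with means of 57.9 (Tyr-L) and 55.4 FPKM (Tyr-H) and a log2 fold change of -0.07 (adjusted p = 0.162) that was 0.09 after median ratio scaling. The ratio of Rragd to Rragc was 0.196 in Tyr-L and 0.171 in Tyr-H, a log2 difference of -0.20.

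Flcn encodes folliculin, which acts on RagC and RagD to promote their GDP-bound state, and lies at chr11:59791408-59810016 on the minus strand. Tyr-L libraries had 31.9, 31.6 and 30.4 FPKM, and Tyr-H libraries had 24.2, 24.3 and 24.6 FPKM. The 3 Tyr-H libraries were nearly equal and all below Tyr-L. The log2 fold change was -0.36 (SE 0.04, adjusted p = 4.19e-05), or -0.20 relative to the median gene, and it was between -0.45 and -0.21 over the alternatives.

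Ddit4 (REDD1) is induced by many stresses and restrains mTORC1 through the TSC complex. It lies at chr10:59949669-59951834 on the minus strand, and its deposited locus is chr10:59949675-59951770. Its Tyr-L libraries had 11.03, 11.3 and 9.48 FPKM, and its Tyr-H libraries had 26.6, 34.9 and 34.1 FPKM. Tyr-H replicate 1 was the lowest of its group and still far above the highest Tyr-L library. The means were 10.6 (SD 0.986) and 31.9 (SD 4.62), a 3.00-fold difference with a log2 fold change of 1.57 (SE 0.11, adjusted p = 3.25e-06). Its paralog Ddit4l rose less, from 8.21 to 11.4 FPKM (log2 fold change 0.47, or 0.62 relative to the median gene, adjusted p = 0.000109).

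Deptor binds mTOR and inhibits its kinase activity in both mTOR complexes. The gene spans chr15:55112317-55259271 on the plus strand, and its deposited locus, which starts at 55099917, is shared with Gm9920. Libraries of Tyr-L had 15.2, 14.0 and 14.5 FPKM, and those of Tyr-H 6.62, 6.17 and 5.17. Every Tyr-H library was below every Tyr-L library by a wide margin. The mean fell from 14.6 (SD 0.612) to 5.99 (SD 0.739), 2.43-fold lower, with a log2 fold change of -1.27 (SE 0.09, adjusted p = 3.79e-06). Gm9920, with means of 0.258 (Tyr-L) and 0.186 FPKM (Tyr-H), shares 303 of the 8874 exon bases of Deptor on the opposite strand. Deptor and Ddit4, which both restrain mTORC1, thus moved in opposite directions in the same libraries.

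Eif4ebp1 encodes the best known inhibitor of eIF4E, released from it when mTORC1 phosphorylates the protein. It lies at chr8:27260329-27276674 on the plus strand. Tyr-L replicates had 36.5, 42.4 and 39.6 FPKM, and the Tyr-H replicates had 117.6, 125.6 and 137.9 FPKM. This was the highest level and the largest change among the 10 genes. The means were 39.5 (SD 2.94) and 127.1 (SD 10.2), 3.21-fold higher in Tyr-H, with a log2 fold change of 1.68 (SE 0.07, adjusted p = 2.43e-07). Its paralog Eif4ebp2 went the other way, from 53.6 to 35.6 FPKM (log2 fold change -0.59, or -0.43 relative to the median gene, adjusted p = 2.51e-06).

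By FPKM, Eif4ebp1 was the lesser of the pair in Tyr-L and the greater in Tyr-H. That order within a group depends on the transcript lengths used, and the deposited locus of Eif4ebp2 differs from the annotated one. The ratio of Eif4ebp1 to Eif4ebp2 was 0.702, 0.764 and 0.745 in Tyr-L and 3.27, 3.48 and 3.96 in Tyr-H libraries, a log2 difference of 2.27. Eif4ebp3 was listed at 0.217 and 0.462 FPKM in Tyr-L replicates 1 and 2 and at 0 in the other libraries. The binding proteins together summed to 93.3 FPKM (SD 4.82) in Tyr-L and 162.7 FPKM (SD 9.59) in Tyr-H, and the share of Eif4ebp1 went from 42.3% to 78.04%. Set against the mRNA of Eif4e, a ratio chosen after its values were seen, the sum was 1.13 (SD 0.107) in Tyr-L and 2.45 (SD 0.112) in Tyr-H.

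**Figure D3:**
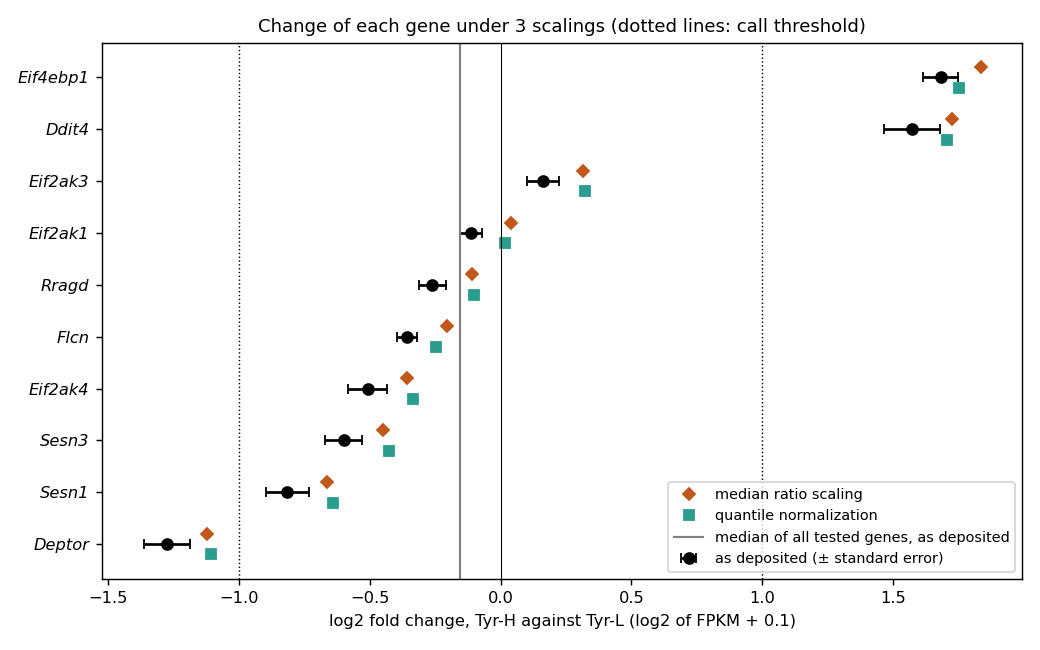
Log2 fold change (Tyr-H over Tyr-L) of the 10 genes as deposited (black, with the standard error of the limma fit), after median ratio scaling (diamonds) and after quantile normalization (squares), with dotted lines at the fold threshold. Eif4ebp1 (1.68), Ddit4 (1.57) and Deptor (-1.27) pass it under each scaling, and Eif2ak1 (-0.11) crosses 0.

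In order of level per length, Tyr-L ran from Eif4ebp1 over Flcn, Eif2ak1 and Deptor to Rragd and Ddit4, then Eif2ak3, Sesn3 and Eif2ak4, and last Sesn1. Rragd and Ddit4 overlapped between libraries, as did Eif2ak3 with Sesn3 and Sesn3 with Eif2ak4. In Tyr-H the order was Eif4ebp1, Ddit4, Flcn, Eif2ak1, Eif2ak3, Rragd, Deptor, Eif2ak4, Sesn3 and Sesn1, where Eif2ak3 overlapped Rragd, Deptor overlapped Eif2ak4, and Eif2ak4 overlapped Sesn3, while the other neighbours did not overlap. Ddit4 thus stood at place 6 in Tyr-L and place 2 in Tyr-H, and Deptor at place 4 and place 7.

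Around the 10 genes, 6 lists of the same pathways held 107 listed genes, of which 105 were tested. Of these, 7 were called higher (6.67%, beside 2.96% of all tested genes) and 1 lower (0.952%, beside 5.78%). By adjusted p alone 26 were higher (24.8%, beside 17.9%) and 41 lower (39.0%, beside 39.9%), so the share that was lower was near that of all genes. The same shares of all genes stand behind the counts of each list. The median log2 fold change was -0.08 and became 0.07 after median ratio scaling. That scaling moved the medians of the lists, as given below, to 0.14 for eIF2, -0.02 for the mTOR complex list and 0.09 for Rag. It moved them to -0.02 for TSC, 0.06 for the substrates and 0.27 for the transcription factors. Among 17 genes of the list of eIF2 and its regulators, 4 were higher (23.5%) and 5 lower (29.4%) by adjusted p (median -0.02). The list also held Eif2a and Eif2d, which encode separate initiation factors and not parts of eIF2. Eif2a was among the lower and Eif2d among the higher genes. Ppp1r15a was the only gene of the list that was called. Ppp1r15a (GADD34), which directs a phosphatase to eIF2, went from 3.25 FPKM (SD 0.715) to 28.0 FPKM (SD 3.15), a log2 fold change of 3.09 (adjusted p = 4.01e-07). It overlaps Tulp2. Impact, which competes with Eif2ak4 for its activator and was picked after its values were seen, fell from 32.9 to 19.9 FPKM (log2 fold change -0.72, adjusted p = 9.61e-07).

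The mTOR complex list held 11 genes, of which 2 were higher (18.2%) and 6 lower (54.5%) by adjusted p. Over all tested genes the shares were 17.9% and 39.9%. The median of the list was -0.17, near the -0.15 of all genes. It also held Telo2, Tti1 and Tti2, which help to assemble mTOR and are not subunits of its complexes. Telo2 (-0.52) and Tti1 (-0.82) were among the lower genes, and Tti2 did not pass the adjusted p. Prr5, a subunit of the second mTOR complex, was called, with means of 1.87 (Tyr-L) and 4.97 FPKM (Tyr-H) (log2 fold change 1.36, adjusted p = 6.11e-06). Mtor itself had 10.7 and 10.9 FPKM (log2 fold change 0.03, SE 0.07, adjusted p = 0.713, and 0.19 relative to the median gene). Among 27 genes of the Rag, Ragulator, GATOR and amino acid sensor list, 5 were higher (18.5%) and 10 lower (37.0%) (median -0.07), with Sesn2 as the only call. In limma 0 of 15 genes of the TSC, Rheb and AMPK list were called, while 3 were higher (20.0%) and 7 lower (46.7%) by adjusted p (median -0.18) and 11 had an unadjusted p under 0.05. Likewise 0 of 21 tested mTORC1 substrates and cap-dependent translation genes were called, with 5 higher (23.8%) and 7 lower (33.3%) by adjusted p (median -0.10) and 13 at an unadjusted p under 0.05.

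The last list held transcription factors known to act on some of the 10 genes. Of its 14 tested genes 4 were called higher and 1 lower, and 7 were higher and 6 lower by adjusted p, beside 17.9% and 39.9% of all tested genes (median 0.12). Atf4, whose mRNA is favoured when eIF2 is phosphorylated, went from 132.3 FPKM (SD 10.5) to 311.5 FPKM (SD 23.4), a log2 fold change of 1.24. Atf3 (2.67), Ddit3 (2.22) and Cebpb (1.86) were also higher on that scale, and all 3 overlap other genes (Gm24748, Mars and Tmem189 among them). Mitf, the melanocyte master regulator, fell from 90.5 to 25.0 FPKM, a log2 fold change of -1.85. Whether any of these factors acted on the 10 genes was not tested.

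**Figure D4:**
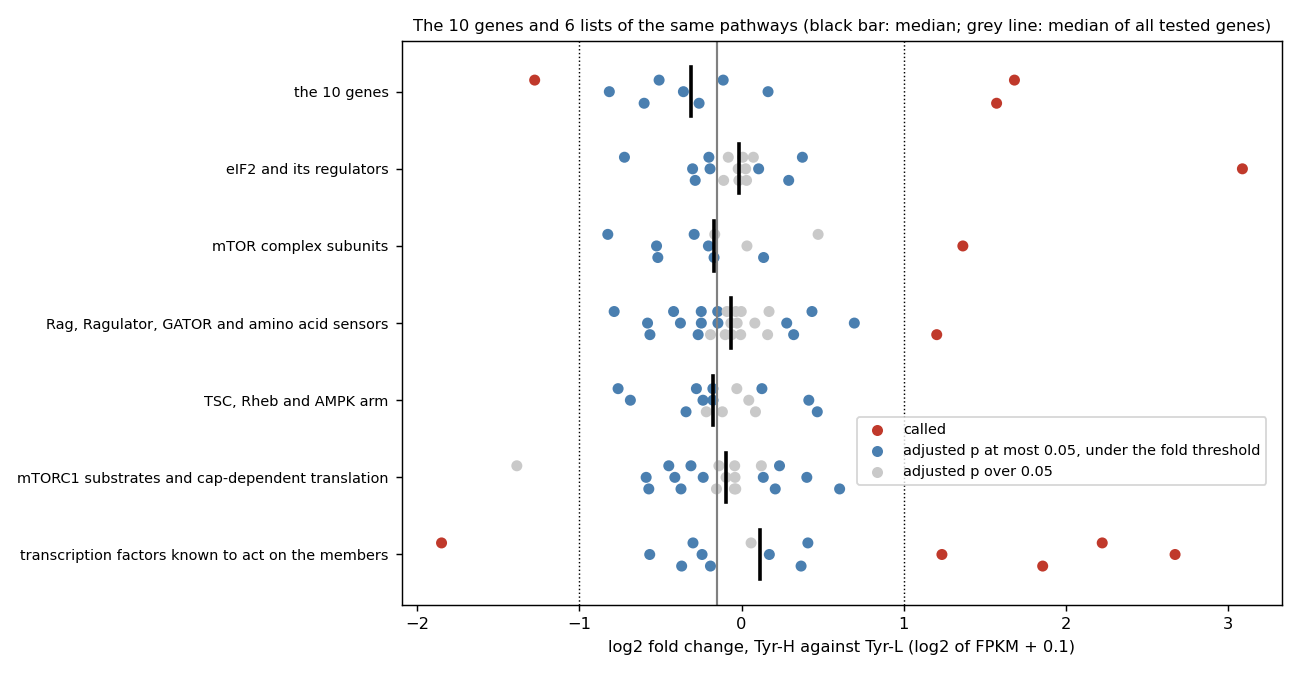
Log2 fold change (Tyr-H over Tyr-L) of every tested gene of the 10 and of 6 lists of the same pathways, one point per gene, with black bars for list medians and a grey line for the median of all tested genes (-0.15). Most points lie within the dotted fold thresholds, and of the list genes 7 are called higher, led by Ppp1r15a (3.09), and Mitf (-1.85) is called lower.

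The genes whose log2 values followed Eif4ebp1 most closely over the 6 libraries were Klf4 (Pearson r = 0.99978), Plk2 (0.99963) and Acot9 (0.99951). For Deptor they were Setd1a (0.99981), Prpf38b (0.99955) and Hdac1 (0.99954). High values were common, as 1233 of the 11025 genes reached 0.95 with Eif4ebp1 and 2794 with Deptor. How much of this comes from the division into 2 groups of 3 was not tested.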

How the data were processed

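RNA of 3 Tyr-H and 3 Tyr-L libraries was prepared with an mRNA kit and sequenced from both ends at 150 bp. The authors deposited FPKM values per gene and library. The submitters' processing notes name Trimmomatic, HISAT2, HISAT and GRCm38.p6. The quantifier, its annotation and the use of strand are not given in the sources used here. Groups and replicate numbers came from the sample labels. Unlisted genes were taken as 0. No count test was run, and depth was estimated from the lowest values.

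The 14336 genes whose mean over the 6 libraries reached 0.1 FPKM were compared on log2(FPKM + 0.1) with limma 3.58.1 in R 4.3.3, with a variance trend and Benjamini-Hochberg adjustment over all of them. Fold changes are on that scale, which understates the change of low genes. A call needed an adjusted p up to 0.05 together with a log2 fold change of 1 or more in either direction. Ratios and single genes had exact permutation tests, two-sided, run with scipy 1.17.1 in Python 3.11.15. The fit was tested on simulated data. Coordinates, which count from 1, and overlaps came from GENCODE M21 (GRCm38). The deposited loci can span several overlapping genes. They differ from GENCODE for Eif2ak1, Ddit4, Deptor, Atf4, Ddit3, Cebpb, Ppp1r15a, Eif2ak2, Eif4ebp2, Eif4ebp3 and Impact, and for Eif2a, Eif2d and Tti2. Values of these genes may therefore rest on other gene models.

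Named were all 10 genes, 5 paralogs, Atf4, Mitf, Mtor, up to 3 called genes per list and direction whose mean reached 1 FPKM, and the 3 genes most like the extreme members. Some of the genes that overlap these, markers, Eif4e, Eif4ebp3, Impact, Eif2a, Eif2d, Telo2, Tti1 and Tti2 were added. The 10 genes and the lists were chosen with earlier results of these data known. Of 110 names written for the lists 107 were found, 3 of them under older symbols. Alternatives were other pseudocounts, filters, scalings and variance estimates, a replicate block, each library left out and no fold threshold.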

Additional observations from a re-analysis of the deposited data

How the results depend on the processing

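Eif4ebp1, Ddit4 and Deptor were called in each of 16 alternatives that refit or rescale the data, and the direction of every gene but Eif2ak1 was kept in all of them. Eif2ak1 turned from -0.11 to 0.0397 after median ratio scaling and 0.0175 after quantile normalization, and the adjusted p of Eif2ak1 passed in 6 and that of Eif2ak3 in 7 of the 16. The median log2 fold change of the 10 genes (-0.31) was -0.41 after rescaling to a total of 1000000, -0.16 after median ratio scaling and -0.18 after quantile normalization. Over all tested genes, 425 were called higher and 829 lower. A pseudocount of 1 gave 185 and 203, and a mean of at least 1 FPKM gave 247 and 393, with fewer genes tested. Lower calls numbered 1287 after rescaling, where 15719 genes passed the same filter against 14336, and 494 after quantile normalization. The share of calls that were higher was 33.9%, and it was 47.7% with a pseudocount of 1, 48.4% after median ratio scaling and 55.3% after quantile normalization. With no fold threshold, 7 of the 10 genes were lower, 2570 and 5722 of all genes were higher and lower, and 26 and 41 of the list genes were, against 7 and 1. List genes called lower were 1 to 2 when a library was left out, and the second, Eif4ebp3, came in without Tyr-L replicate 3. Log2 ratios of paralogs kept their direction with 0.1 FPKM added to both genes and with each library left out.

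Replicate numbers did not pair the libraries. Deviations from group means correlated at 0.0223, 0.0132 and -0.0834 for numbers 1, 2 and 3, and not every library correlated best with its own number. With a replicate block, 2 of the 10 genes were called higher and 1 lower, the adjusted p was 0.0935 for Eif2ak1 and 0.0583 for Eif2ak3, and 430 and 828 of all genes were called higher and lower. Fragments per gene were only estimated and no count model was run, and with 3 libraries a group the exact test cannot go below 0.1.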
